A study of Mus musculus with 20 samples.

Results

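The *Pax* genes encode a small family of DNA-binding transcription factors, and 8 of them, *Pax1*, *Pax2*, *Pax3*, *Pax5*, *Pax6*, *Pax7*, *Pax8* and *Pax9*, were followed by symbol among the 43280 genes listed in the mouse count tables. All 8 were listed in each of the 12 RNA-seq libraries, and the start of each was searched for accessible chromatin in 4 lists of ATAC-seq peaks, 1 per embryonic condition. Embryonic libraries were made at E13.5 from mesenchymal cells of the stomach or the intestine of mice listed as C57BL/6, sorted as GFP+ cells by FACS. The study's reporting summary instead gives mixed strain backgrounds, with the Bapx1-cre line on C57BL/6 and the Eedfl and Rosa26mTmG lines on mixed ones. Controls were Bapx1-cre;Rosa26mTmG, and the *Eed* KO was Eedfl/fl;Bapx1-cre;Rosa26mTmG, so that both genotypes carried the Cre, driven from the gut mesenchyme gene *Bapx1* (*Nkx3-2*), and the reporter in which Cre switches a cell and its descendants to GFP, and only the *Eed* KO carried the floxed *Eed*. There were 2 libraries for each of control intestine, *Eed* KO intestine, control stomach and *Eed* KO stomach. The 4 adult libraries were of intestinal mesenchyme, 2 labelled WT and 2 labelled EED-KO. The methods describe GFP+ stromal cells of tamoxifen-treated adult mice that carry a tamoxifen-dependent Cre under *Pdgfrβ* and the same reporter, with or without the floxed *Eed*. The study calls the 2 libraries of a group biological replicates, but how many embryos or animals went into each was not found in the sources used here, and the p-values below measure the spread between these libraries.

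Pax proteins bind DNA through a paired domain, and some of them also carry a homeodomain. In the embryo the members work in different places. *Pax1* and *Pax9* act in the sclerotome, which forms the vertebral column, and in the pharyngeal pouches, *Pax2*, *Pax5* and *Pax8* in the kidney, the midbrain-hindbrain boundary, the thyroid and the B lymphocyte lineage, *Pax3* and *Pax7* in the dermomyotome and neural crest, and *Pax6* in the eye, brain and pancreatic islets. None of the 8 is known as a marker of the mesenchyme of the stomach or intestine. *Eed* is a core subunit of Polycomb repressive complex 2 (PRC2), which places the repressive mark H3K27me3 on developmental genes, and *Pax* genes are classical carriers of that mark in cells that do not express them.

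The sequence before the start of a gene is where a promoter peak would lie. The 250 bases upstream of a RefSeq start are shown for 5 members: the 4 with the highest mean TPM and *Pax5*, the member with no promoter peak. *Pax2* and *Pax6* have further RefSeq starts, and for them the start nearest to that in the count tables' annotation is shown. They are from RefSeq on GRCm38.p6, the assembly that mm10 stands for, read 5′ to 3′ on the gene's strand, with CG dinucleotides, which are dense in CpG islands, in capitals. The regions are chr2:105668646-105668895 (+ strand) for *Pax6*, chr12:56695221-56695470 (+) for *Pax9*, chr2:147364744-147364993 (+) for *Pax1*, chr19:44755502-44755751 (+) for *Pax2* and chr4:44710695-44710944 (- strand) for *Pax5*.
Pax6: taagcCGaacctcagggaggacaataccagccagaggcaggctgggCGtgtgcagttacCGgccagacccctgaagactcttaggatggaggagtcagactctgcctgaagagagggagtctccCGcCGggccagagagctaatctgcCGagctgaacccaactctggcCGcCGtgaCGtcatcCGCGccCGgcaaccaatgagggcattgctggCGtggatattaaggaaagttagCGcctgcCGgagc
Pax9: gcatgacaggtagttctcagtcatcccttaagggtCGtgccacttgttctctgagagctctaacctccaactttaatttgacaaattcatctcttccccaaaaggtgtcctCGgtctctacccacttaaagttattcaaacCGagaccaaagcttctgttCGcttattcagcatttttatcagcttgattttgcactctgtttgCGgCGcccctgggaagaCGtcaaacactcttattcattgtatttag
Pax1: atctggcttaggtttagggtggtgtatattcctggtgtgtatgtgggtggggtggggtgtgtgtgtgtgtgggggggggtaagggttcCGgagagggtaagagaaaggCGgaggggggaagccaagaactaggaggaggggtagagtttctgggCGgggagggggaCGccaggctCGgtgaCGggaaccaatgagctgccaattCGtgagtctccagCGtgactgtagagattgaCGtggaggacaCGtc
Pax2: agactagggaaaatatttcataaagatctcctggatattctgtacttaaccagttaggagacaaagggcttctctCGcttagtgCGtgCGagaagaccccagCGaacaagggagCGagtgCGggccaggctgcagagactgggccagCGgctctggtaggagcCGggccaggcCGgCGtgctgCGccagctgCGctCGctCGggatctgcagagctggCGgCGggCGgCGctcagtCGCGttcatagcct
Pax5: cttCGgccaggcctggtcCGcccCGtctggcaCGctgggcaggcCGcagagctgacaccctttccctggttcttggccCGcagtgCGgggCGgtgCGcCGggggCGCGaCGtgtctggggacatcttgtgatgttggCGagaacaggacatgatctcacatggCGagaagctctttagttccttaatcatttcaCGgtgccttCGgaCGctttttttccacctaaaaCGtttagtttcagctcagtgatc
These hold 15, 7, 10, 20 and 19 CG dinucleotides in the order printed. The *Pax2* promoters not printed hold 5 and 25, and the *Pax6* promoter not printed holds 15. In all, 7 of the 8 genes had 10 such promoters, with a median of 14 CG. The median was 6 over all 32851 promoters and 2 over those of protein-coding genes with as few control counts as the *Pax* genes. TATAAA, searched on both strands, was in none of the 10 and in 12.4% of all promoters. The RefSeq start of *Pax9* lies 3704 bp and that of *Pax1* 3069 bp downstream of the start in the count tables' annotation, which is the start used for the promoter peaks below. In that annotation (GENCODE vM4, mm10) *Pax1* spans chr2:147361925-147393295, *Pax9* chr12:56691767-56712822, *Pax2* chr19:44756045-44837871 and *Pax6* chr2:105668900-105697364 on the + strand, and *Pax5* spans chr4:44531145-44710487, *Pax8* chr2:24420560-24475599, *Pax3* chr1:78101267-78197134 and *Pax7* chr4:139737062-139833528 on the - strand.

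In the embryonic libraries the *Pax* genes were almost silent in the control mesenchyme and were detected in the *Eed* KO. Summed over the 8 genes, the control intestine libraries held 3 and 5 counts and the control stomach libraries 17 and 18 counts. In the *Eed* KO the sums were 124 and 224 counts for the intestine and 633 and 815 for the stomach. Library totals on genes were similar, between 30236159 and 39606157, so that a count of 0 in a library allows up to 0.0765 to 0.101 CPM (3 counts, counting error only, with CPM the counts scaled by TMM to a common library size). Per gene length, the family reached 2.36 ± 1.08 TPM (the counts per gene length, scaled to a common sum, SD, n = 2) in the *Eed* KO intestine and 9.08 ± 2.35 TPM in the *Eed* KO stomach, against 0.0819 ± 0.0235 TPM and 0.246 ± 0.0264 TPM in the controls of the same organs. Even in the *Eed* KO each of these genes stayed at a low level, the highest group mean being that of *Pax9* in the stomach, 2.80 ± 0.306 TPM.

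**Figure D1:**
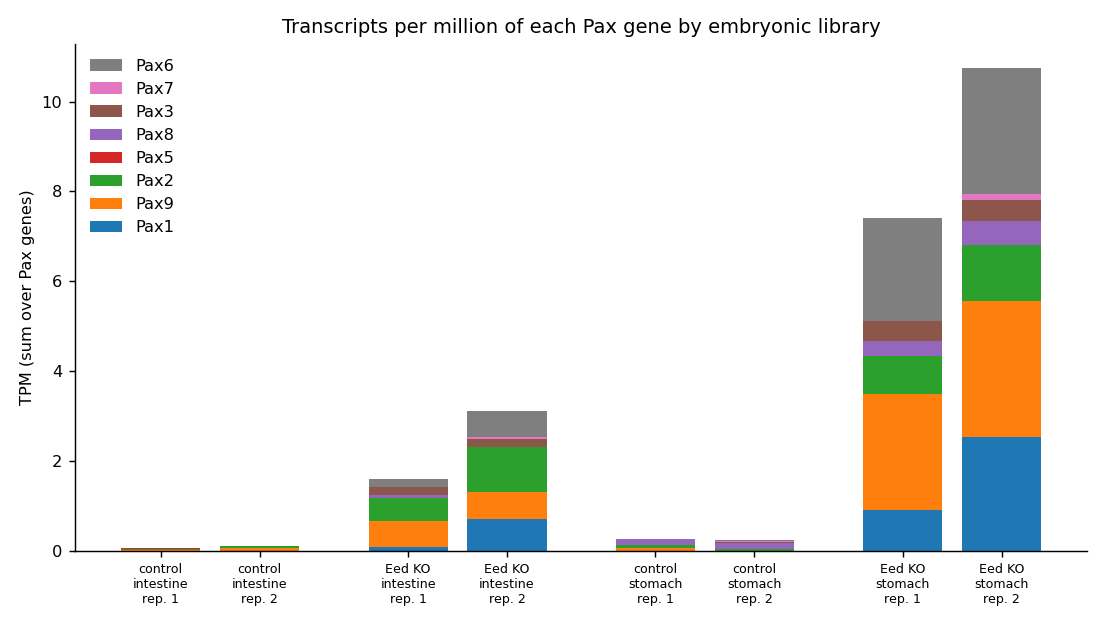
Stacked bars of TPM (linear axis from 0) of the 8 *Pax* genes in each of the 8 embryonic libraries, 2 libraries (rep. 1 and rep. 2) per group. The *Eed* KO stomach libraries reach 7.42 and 10.7 TPM and the *Eed* KO intestine libraries 1.60 and 3.12 TPM, and the highest control bar is at 0.264 TPM.

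The shares of this sum varied between organs for some members and between libraries for others. In the *Eed* KO stomach, *Pax9* made up 28.1% and 34.8% of the family's TPM in the 2 libraries and *Pax6* 26.1% and 30.9%. In the *Eed* KO intestine, *Pax2* had 31.6% and 32.1%, against 11.6% and 11.7% in the *Eed* KO stomach, and *Pax6* had 11.3% and 19.0%. *Pax9* had 35.8% and 19.1% there, which overlaps its stomach shares, and *Pax1* varied between libraries in both organs, with 5.44% and 22.8% for the intestine libraries and 12.1% and 23.6% for those of the stomach. The order of the mean TPM over the 8 embryonic libraries, which is set by the *Eed* KO stomach, was *Pax9*, *Pax6*, *Pax1*, *Pax2*, *Pax3*, *Pax8*, *Pax7* and *Pax5*. In the *Eed* KO intestine alone the order began with *Pax2* (0.753 ± 0.351 TPM), *Pax9* (0.584 ± 0.0183 TPM), *Pax1* (0.399 ± 0.442 TPM) and *Pax6* (0.386 ± 0.291 TPM), and these overlapped. Within the *Eed* KO stomach the libraries of *Pax9* (2.58 and 3.02 TPM) and *Pax6* (2.29 and 2.80 TPM) overlapped, as did those of *Pax1* (0.901 and 2.54 TPM) and *Pax2* (0.857 and 1.26 TPM), so these neighbours do not differ beyond their spread.

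**Figure D2:**
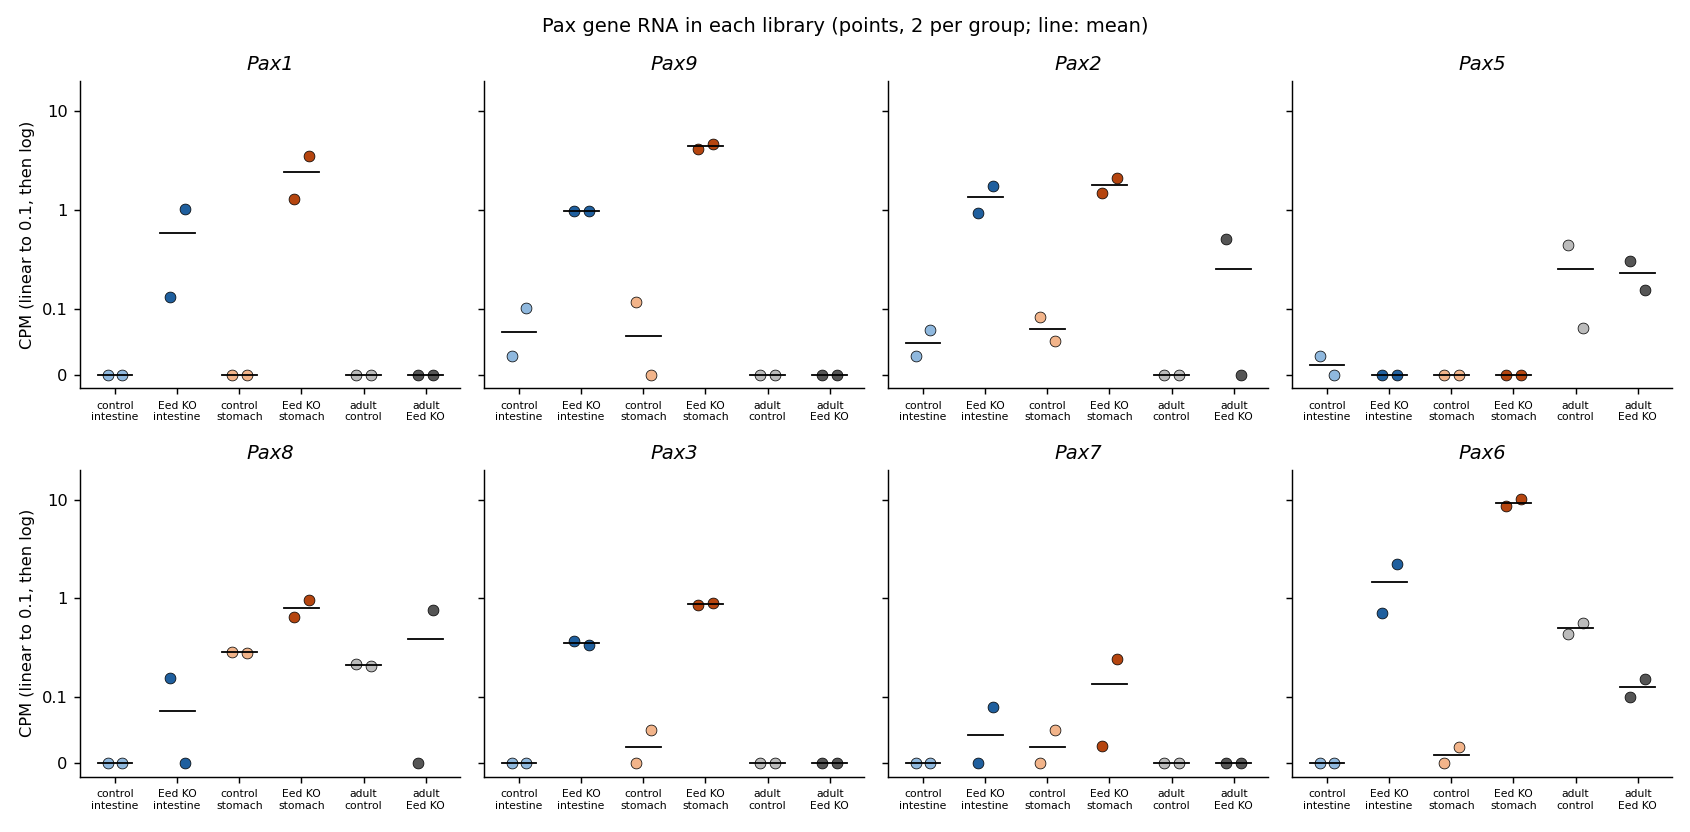
CPM (axis linear up to 0.1 and logarithmic above) of each *Pax* gene, 1 panel per gene, with 1 point per library and a line at the mean of the 2 libraries of each group. *Pax1*, *Pax9*, *Pax2*, *Pax3* and *Pax6* lie higher in every embryonic *Eed* KO library than in every control library, *Pax5* is at 0 in 7 of the 8 embryonic libraries, and *Pax1*, *Pax9*, *Pax3* and *Pax7* are at 0 in all 4 adult libraries.

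The comparison of *Eed* KO with control asks whether loss of PRC2 in the gut mesenchyme changes the expression of these genes. Embryonic counts were tested by edgeR's quasi-likelihood method over 16218 genes, with Benjamini-Hochberg adjustment over all of them, and a gene was called at an adjusted p under 0.05 with a log2 fold change above 1 in size. Of the 8 *Pax* genes, 6 passed the filter on low counts, and they passed it through the *Eed* KO libraries, where their counts are, except *Pax8*, which also has counts in the control stomach. The 2 others, *Pax5* and *Pax7*, were too low to be tested. In the intestine 4 of the 8 were called higher in the *Eed* KO (*Pax9*, *Pax2*, *Pax3* and *Pax6*), where 2.38% of all genes tested were called higher. In the stomach 5 of the 8 were called higher (the same 4 and *Pax1*), where 4.84% of all genes tested were. None was called lower in either organ, where 0.228% and 0.808% of all genes tested were. Apart from *Pax8* in the stomach, the tested members had only 0 to 5 control counts per organ, too few for a fall to be called. For genes that passed the filter through the *Eed* KO libraries a rise was fixed in advance. The shares of all genes tested are given for scale and do not test the direction. With no filter on low counts all 8 were tested, and 5 were called higher in each organ (*Pax1*, *Pax9*, *Pax2*, *Pax3* and *Pax6*), where 2.89% and 4.22% of 25364 genes were. Over both organs together, the filtered fit called these 5 higher, where 6.01% of all genes tested were. In the *Eed* KO intestine 5 of the 8 genes, and in the *Eed* KO stomach 6 with *Pax8*, were higher in both libraries than in both controls, as were 21.8% and 27.7% of all genes tested. In every *Eed* KO library the level of the 5 genes was above that in every control library of either organ, a pattern seen in 8.15% of all genes tested.

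**Figure D3:**
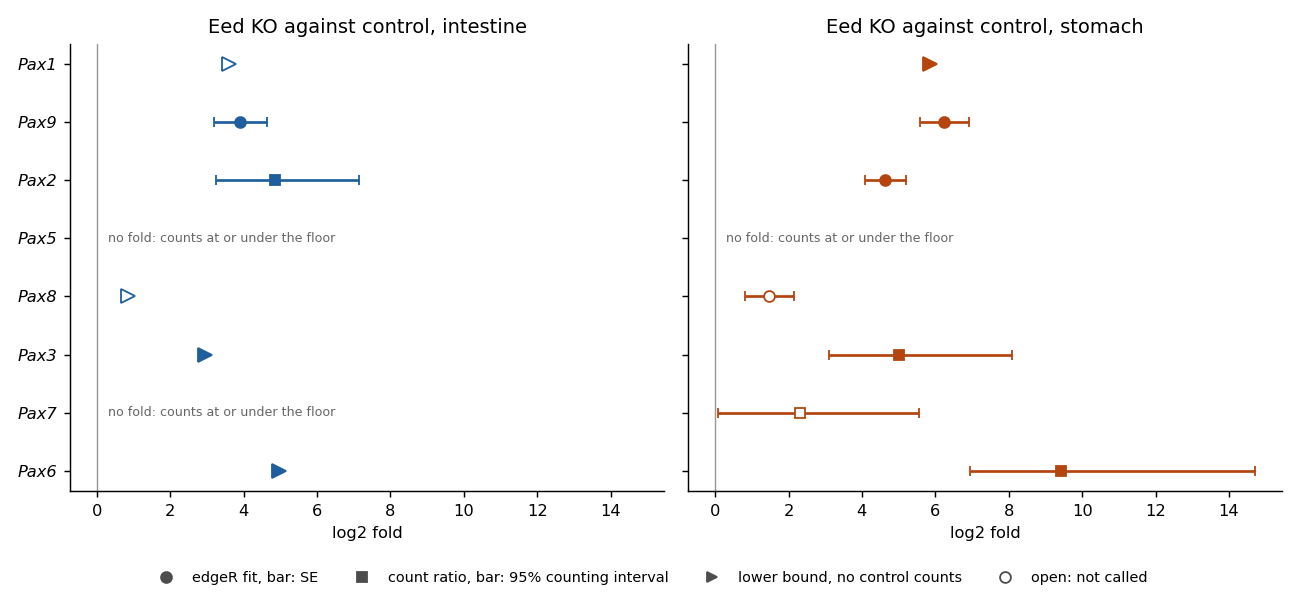
Log2 fold of *Eed* KO over control in the intestine (left) and the stomach (right) for each *Pax* gene. Circles are fitted edgeR values with SE, squares are ratios against 1 to 3 control counts with a 95% counting interval, triangles are lower bounds against 3 counts where the control group has no counts, and open symbols were not called. All called symbols lie to the right of 0, and *Pax5* has no fold in either organ.

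*Pax9* and *Pax1*, the sclerotome and pharyngeal pouch members, are closely related and were both higher in the *Eed* KO, *Pax9* in both organs and *Pax1* past the test in the stomach. *Pax9* had 1 and 3 counts in the control intestine, 37 and 34 in the *Eed* KO intestine, 4 and 0 in the control stomach, and 155 and 170 in the *Eed* KO stomach. These are 0.0281 and 0.101 CPM, 0.976 and 0.970 CPM, 0.116 and 0 CPM, and 4.16 and 4.66 CPM. The *Eed* KO libraries of each organ lay close together and far from the controls. The log2 fold change was 3.91 ± 0.72 (SE; edgeR adjusted p = 0.0349) in the intestine and 6.25 ± 0.66 (edgeR adjusted p = 0.00240) in the stomach. With 1 library left out in turn it ranged from 3.22 to 4.95 in the intestine and from 5.21 to 10.31 in the stomach, where the control counts were 4 and 0. *Pax1* was not detected in any of the 4 control libraries. It had 5 and 36 counts in the *Eed* KO intestine (0.132 and 1.03 CPM), and the *Eed* KO stomach libraries had 48 and 127 (1.29 and 3.48 CPM), and the 2 libraries of each organ lay far apart. Against 3 counts over the control group, *Pax1* was at least 12.2-fold higher in the *Eed* KO intestine, where it was not called (edgeR adjusted p = 0.236), and at least 58.3-fold higher in the *Eed* KO stomach, where it was called at an edgeR adjusted p of 0.0445. The stomach call of *Pax1* was lost without any 1 of the 2 control stomach, 2 *Eed* KO stomach or 2 control intestine libraries (edgeR adjusted p from 0.0545 without control intestine replicate 2 to 0.172 without control stomach replicate 2).

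*Pax2*, a regulator of the nephric duct, optic stalk and midbrain-hindbrain boundary, had 1 and 2 counts in the control intestine, 35 and 61 in the *Eed* KO intestine, 3 and 2 in the control stomach, and 55 and 76 in the *Eed* KO stomach. In CPM the *Eed* KO libraries stood at 0.923 and 1.74 in the intestine and at 1.48 and 2.08 in the stomach, so that the 2 organs overlapped. In the intestine the ratio to the 3 control counts was 28.6 (95% counting interval 9.51 to 141, edgeR adjusted p = 0.0106), and for the stomach the fit gave a log2 fold change of 4.64 ± 0.56 (edgeR adjusted p = 0.00376). *Pax8*, its relative in kidney and thyroid, was the only member with a steady level in a control group. It had no counts in the control intestine, 10 and 11 counts in the control stomach libraries, 6 and 0 in those of the *Eed* KO intestine, and 24 and 35 in the *Eed* KO stomach. Its libraries in the stomach did not overlap between the genotypes (0.290 and 0.280 CPM in the control, 0.644 and 0.960 CPM in the *Eed* KO), but the log2 fold change of 1.48 ± 0.67 was not called (edgeR adjusted p = 0.258). *Pax5*, the B lineage commitment factor and the third member of this subgroup, had 1 count in 1 control intestine library and none in the other 7 embryonic libraries, so that a change was not detectable at this depth.

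*Pax3* and *Pax7* mark the dermomyotome, muscle precursors and neural crest. *Pax3* had no counts in the control intestine, 14 and 12 in the *Eed* KO intestine, 0 and 2 in the control stomach, and 32 and 33 in the *Eed* KO stomach. Its *Eed* KO libraries lay close together in both organs, at 0.369 and 0.342 CPM in the intestine and 0.858 and 0.905 CPM in the stomach. It was at least 7.76-fold higher in the *Eed* KO intestine (edgeR adjusted p = 0.0407), and the ratio in the stomach was 32.5 (95% counting interval 8.64 to 274, edgeR adjusted p = 0.0111). Without replicate 1 of the control stomach or replicate 2 of the *Eed* KO stomach the call in the stomach was lost (adjusted p of 0.0514 and 0.0580 in edgeR). *Pax7* stayed near the floor. It had no counts in the control intestine, 0 and 3 in the *Eed* KO intestine, 0 and 2 in the control stomach, and 1 and 9 in the *Eed* KO stomach, and its ratio of 5.00 in the stomach had a 95% counting interval of 1.07 to 46.9.

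*Pax6*, required for eye, brain and islet cell development, had the highest counts of the family. No count fell on it in either control intestine library, and the control stomach libraries had 0 and 1, against 27 and 78 counts in the *Eed* KO intestine and 318 and 365 in the *Eed* KO stomach. In CPM these *Eed* KO libraries stood at 0.712 and 2.23 in the intestine and at 8.53 and 10.0 in the stomach, the intestine libraries lying far apart and the stomach libraries close together. *Pax6* was at least 31.3-fold higher in the *Eed* KO intestine (edgeR adjusted p = 0.0261). In the stomach the ratio to its single control count was 683, with a 95% counting interval of 122 to 27009 (edgeR adjusted p = 0.00281). *Pax6os1*, an antisense gene whose start lies 1430 bp from that of *Pax6*, had 2 and 1 counts in the *Eed* KO stomach and none elsewhere.

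The intestine calls rest on both control libraries. Without control intestine replicate 1, no *Pax* gene was called in the intestine and 74 genes were called in all, and without control intestine replicate 2, none and 97, against 423 genes in the full fit. Without 1 of the *Eed* KO intestine or *Eed* KO stomach libraries in turn, 2 *Pax* genes (*Pax2* and *Pax6*) were called in the intestine, so that *Pax9* and *Pax3* lost their calls, and without control stomach replicate 2 *Pax6* lost its call (edgeR adjusted p = 0.0515). In the stomach, *Pax9*, *Pax2* and *Pax6* were called in all 8 fits that left out 1 library.

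The stomach libraries were compared with the intestine libraries to ask whether the *Pax* genes differ between the organs. Between the controls, none of the 8 genes was called, where 5.07% of all genes tested were, and at an unadjusted p under 0.05 there was 1, *Pax8*. *Pax8* was at least 6.20-fold higher in the control stomach than in the control intestine (edgeR adjusted p = 0.0975). DESeq2 called it (adjusted p = 0.0176), as did edgeR with no filter on low counts (adjusted p = 0.0133), where 2.95% of all genes tested were called lower in the control intestine. Between the *Eed* KO organs, 2 of the 8 were called lower in the intestine, where 2.94% of all genes tested were: *Pax9* with a log2 fold change of -2.18 ± 0.45 (edgeR adjusted p = 0.0334) and *Pax6* with -2.66 ± 0.50 (edgeR adjusted p = 0.0299). For 5 of the 8 genes (*Pax1*, *Pax9*, *Pax8*, *Pax3* and *Pax6*) every *Eed* KO stomach library was above every *Eed* KO intestine library, as for 23.9% of all genes tested. The stomach and intestine of each animal were separated by dissection, but no source used here ties the library numbers to animals. With genotype and number together as a block, 4 were called, adding *Pax1* (edgeR adjusted p = 0.0118) and *Pax8* (0.0346). Without the block, both calls were lost without either *Eed* KO stomach library. That of *Pax9* was also lost without either *Eed* KO intestine library and without control intestine replicate 1 (edgeR adjusted p of 0.106, 0.0996 and 0.0504), and that of *Pax6* without either control stomach library (0.0522 and 0.0562). The difference between the organs was not shown to change with *Eed* KO. None of the 8 genes was called for the interaction in edgeR at an adjusted p under 0.2, where 0.462% of all genes tested were, and none had an unadjusted p under 0.05. DESeq2 called none of the 4 to which it gave an adjusted p (*Pax8* and *Pax3* got none), and 1 of these, *Pax9*, had an unadjusted p under 0.05 there.

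A promoter here is the region within 1000 bp of the gene start. In the ATAC-seq lists, 7 of the 8 *Pax* genes had a peak at the promoter in all 4 conditions, controls included, and *Pax5* had none in any. Of all genes tested for expression that lie on the autosomes, 87.2% had a promoter peak in all 4 lists, and of the 6620 protein-coding genes whose counts in the 4 control libraries summed to at most 21, the highest sum of a *Pax* gene, 19.4% had. This presence rests on weak peaks. With peaks kept only at a -log10 q of at least 5, promoter peaks remained at 2 of the 8 *Pax* genes in the control intestine, 4 in the *Eed* KO intestine, 2 in the control stomach and 6 in the *Eed* KO stomach, where the tested genes had one in 85.1%, 85.8%, 84.8% and 86.7% and the genes of low counts in 15.9%, 17.4%, 15.8% and 19.0%. The peaks were also low, since the median fold enrichment of their highest promoter peak was 3.01, 2.63, 2.71 and 2.60 in the control intestine, *Eed* KO intestine, control stomach and *Eed* KO stomach, against 6.92, 6.45, 6.80 and 6.68 for tested genes with a peak and 4.40, 3.93, 4.31 and 4.30 for the genes of low counts with a peak. Each list is 1 call on pooled libraries, so these values have no replicate and no test. The -log10 q of a peak also depends on the number of reads behind its list, which was not compared between the lists. The counts at a q threshold therefore cannot be read as a change of the promoters alone.

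**Figure D4:**
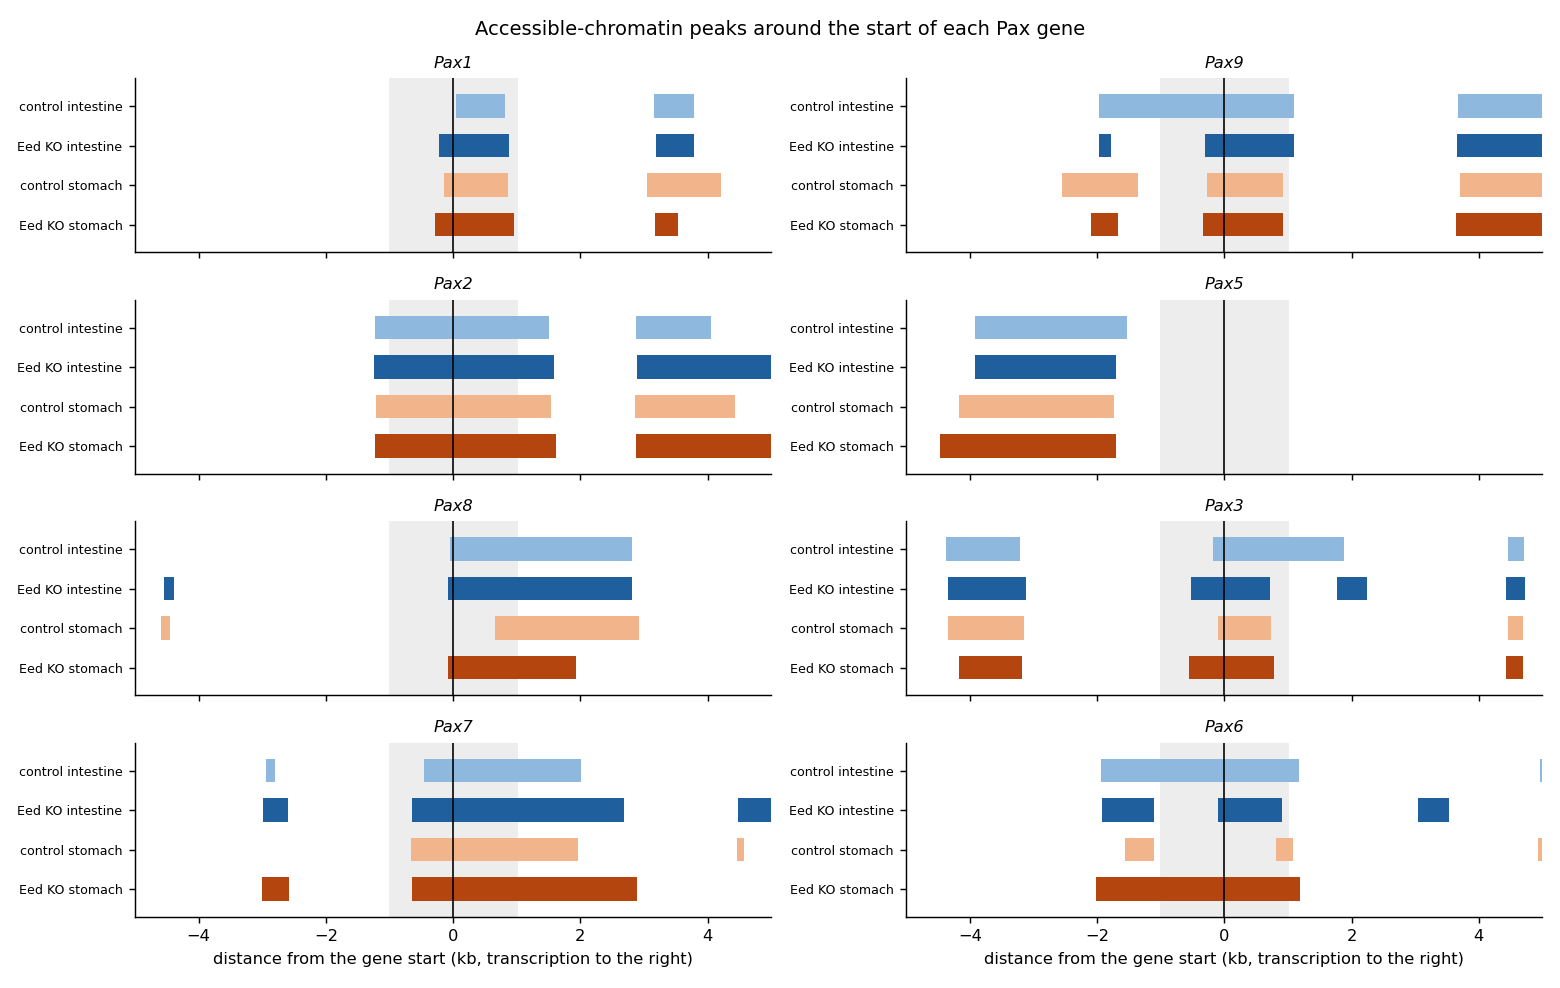
Peaks within 5 kb of the start of each *Pax* gene in the 4 ATAC-seq lists, drawn as bars along the distance from the gene start in kb, with transcription to the right, a line at the start and grey shading over the 1000 bp on each side that count as the promoter. A bar reaches into the shading in all 4 conditions for 7 genes and in none for *Pax5*.

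The peak at the start of *Pax1* had a fold enrichment of 3.62 in the control intestine, 3.55 in the *Eed* KO intestine, 3.56 in the control stomach and 3.65 in the *Eed* KO stomach. That of *Pax9* stood at 2.51, 2.60, 2.71 and 2.59 in the same order, and that of *Pax2* at 3.01, 2.63, 2.66 and 2.60. None of these 3 was higher in the *Eed* KO in both organs. *Pax3* was the only member whose promoter peak was higher in the *Eed* KO in both organs, at 3.07 in the control and 3.62 in the *Eed* KO intestine and at 3.23 in the control and 3.96 in the *Eed* KO stomach. Its -log10 q was 4.32 in the control and 8.66 in the *Eed* KO intestine, and 4.47 and 13.8 in the stomach. In the intestine the -log10 q was also greater in the *Eed* KO for *Pax9* (3.13 in the control and 5.70 in the *Eed* KO), whose peak height hardly differed. It was about equal for *Pax1* (8.52 and 8.54). In the *Eed* KO it was lower for *Pax2* (6.65 and 6.42), *Pax8* (4.36 and 4.32), *Pax7* (2.98 and 2.63) and *Pax6* (3.47 and 2.02). In the stomach it was greater in the *Eed* KO for each member with a promoter peak, such as *Pax9* (4.83 and 8.28), *Pax1* (7.89 and 16.8) and *Pax2* (4.50 and 10.1). The fold enrichment there was lower in the *Eed* KO for *Pax9*, *Pax2* and *Pax7* and higher for the other members with a peak. The part of read depth in the -log10 q was not tested. The promoter peak of *Pax6* was low in all lists, between 2.19 in the *Eed* KO intestine and 2.86 in the control intestine. In the control stomach it was only 272 bp long and began 815 bp downstream of the start, whereas in the *Eed* KO stomach a peak of 3211 bp covered the start. In the intestine the longer *Pax6* peak was the control one, 3120 bp against 1001 bp in the *Eed* KO, and both covered the start. *Pax8* had a control stomach peak that began 656 bp downstream of the start, and its peaks in the other 3 lists covered the start. *Pax7*, hardly transcribed in any library, had peaks over its start of 2.30 to 2.78. At *Pax5* the nearest peak ended between 1533 and 1737 bp upstream of the start in the 4 lists. With the start of any protein-coding transcript in place of the gene start, a choice made after the data were seen, *Pax5* also had a promoter peak in all 4 lists.

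Peaks over the whole genes were compared by their covered length, which was greater in the *Eed* KO for most tested genes too. Over each gene and 5000 bp on both sides, the peaks of *Pax2* covered 7147 bp in the control and 13721 bp in the *Eed* KO intestine, and 9227 bp and 14807 bp in the stomach. Those of *Pax6* covered 7805 bp and 11476 bp in the intestine and 7815 bp and 11756 bp in the stomach. The covered length was greater in the *Eed* KO for 6 of the 8 genes in the intestine, as for 65.1% of the tested genes and 42.0% of the 6620 genes of low counts. In the stomach it was greater for 7 of the 8, as for 61.6% and 37.7%. All 8 *Pax* genes had peaks in both genotypes in each organ, but of the 6620 genes of low counts only 3110 in the intestine and 3188 in the stomach had. A gene without peaks counts as not longer, which lowers the shares of 42.0% and 37.7%. These shares and those of the *Pax* genes are therefore not like for like. The mean fold enrichment of the *Pax2* peaks was 3.01 in the control and 2.79 in the *Eed* KO intestine, and 3.14 and 2.99 in the stomach. The median ratio of *Eed* KO to control length was 1.21 in the intestine and 1.52 in the stomach for the *Pax* genes, 1.06 and 1.05 for the tested genes, and 1.20 and 1.15 for the genes of low counts. By this ratio the *Pax* genes were near the genes of low counts in the intestine. The covered length was smaller in the *Eed* KO for *Pax9*, from 4859 to 4107 bp in the intestine and from 4410 to 3847 bp in the stomach, and for *Pax1* in the intestine, from 2816 to 2789 bp.

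Genes that overlap or neighbour the *Pax* genes were examined because reads of overlapping genes on opposite strands can be told apart only where counting used strand, which is not given for the embryonic files in the sources used here. *Slc25a21*, a mitochondrial carrier gene on the opposite strand that overlaps *Pax9*, had 2 and 1 counts in the control intestine, 26 and 33 in the *Eed* KO intestine, 1 and 6 in the control stomach, and 55 and 51 in the *Eed* KO stomach. Its log2 fold change was 4.05 ± 0.65 in the intestine (edgeR adjusted p = 0.0219) and 3.88 ± 0.54 in the stomach (edgeR adjusted p = 0.00642). The *Pax9* and *Slc25a21* counts therefore rose together, and how many reads they could share was not tested. Within 200000 bp of the 8 genes lay 17 tested protein-coding genes. Of these, 4 were called higher in the stomach, namely *Slc25a21*, *Nkx2-9* near *Pax9*, *Nkx2-2* near *Pax1* and *Cacna1b* near *Pax8*. In the intestine 1 was called higher (*Slc25a21*) and 1 lower (*Sgpp2*, near *Pax3*). Of all genes tested, 4.84% were called higher in the stomach, and 2.38% higher and 0.228% lower in the intestine. The median log2 fold change of the 17 was 0.05 in the intestine and 0.66 in the stomach, against 0.01 and 0.00 over all genes tested.

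Genes known to work with or downstream of the *Pax* genes in other tissues were described by list. A list gene with no counts in any embryonic control library could pass the filter on low counts only through the *Eed* KO libraries. For such genes a rise was fixed in advance, which raises the medians over tested genes given below. In the embryonic mesenchyme each list had members that rose in the *Eed* KO, and 1 member of 1 list fell. Of 22 cofactors of Pax proteins, all tested, 3 were called higher in the intestine and 5 in the stomach. *Eya4*, which encodes a transcriptional coactivator, rose in the intestine by a log2 fold change of 2.23 ± 0.27 and *Eya2* in the stomach by 2.84 ± 0.35. The median of the list was 0.19 in the intestine and -0.05 in the stomach.

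Among sclerotome and cartilage genes linked to *Pax1* and *Pax9*, 6 of 22 were called higher in the intestine and 7 in the stomach, with 19 tested and none called lower. *Foxc1*, a mesoderm factor, rose from 0.511 ± 0.325 to 5.01 ± 0.10 CPM (SD, n = 2) in the intestine and from 1.24 ± 0.12 to 16.3 ± 0.4 CPM in the stomach. The list's median log2 fold change was 2.07 in the intestine, or 1.09 with genes that had no control counts at their bound, and 1.12 in the stomach. Of 18 myogenic and dermomyotome genes linked to *Pax3* and *Pax7*, 7 rose in the intestine and 10 in the stomach, with 16 tested, none called lower and medians of 1.51 (1.23 at the bounds) and 1.51. *En1*, with no control stomach counts, was at least 121-fold higher in the *Eed* KO stomach. Of 14 neural crest genes, all tested, 5 rose in the intestine and 7 in the stomach, with medians of 1.63 and 1.04. *Zic1* had no counts in the controls and was at least 79.4-fold higher in the intestine and at least 1029-fold higher in the stomach, *Tfap2a* rose in the intestine by a log2 fold change of 4.22 ± 0.45, and *Tfap2b* was at least 119-fold higher in the stomach.

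Of 17 kidney and nephric duct genes linked to *Pax2* and *Pax8*, with 15 tested, 2 rose in the intestine, whereas 4 rose and 1 fell in the stomach, with medians of 0.63 and 0.72. *Sall1* rose by a log2 fold change of 1.87 ± 0.29 in the intestine and 3.87 ± 0.34 in the stomach. *Emx2* rose by 2.97 ± 0.29, also on the log2 scale, in the stomach. *Gdnf*, the ligand that draws out the ureteric bud and guides enteric neural crest, fell by 1.36 on the log2 scale in the stomach, from 71.5 ± 7.1 to 27.8 ± 1.0 CPM. Of 8 midbrain-hindbrain genes linked to *Pax2*, *Pax5* and *Pax8*, 3 of the 5 tested rose in the intestine, among them *Pou3f4* (2.67 ± 0.31), and all 5 tested rose in the stomach, where *En2*, without control counts, was at least 73.0-fold higher, with medians of 5.85 (3.21 at the bounds) and 7.20 (6.19 at the bounds). The thyroid list had 1 of 7 genes higher in each organ (5 tested, medians of 2.32 and 2.27), *Hhex*. Of 18 eye and islet genes linked to *Pax6*, with 10 tested, 4 rose in the intestine and 7 in the stomach, with medians of 3.37 (1.81 at the bounds) and 2.82. *Sox2* rose by a log2 fold change of 3.39 ± 0.38 in the intestine and 3.82 ± 0.34 in the stomach. *Isl1* rose by a log2 fold change of 1.67 ± 0.31 in the intestine. Of 15 B lineage genes linked to *Pax5*, 6 were tested and 1 rose in each organ, *Lef1* in the intestine (2.76 ± 0.41) and *Ebf1* in the stomach (1.69 ± 0.35), both of which are also expressed outside B cells, and the medians were 0.83 and 0.61. Every gene given with a value from these lists had an edgeR adjusted p between 0.000649 (*Gdnf* in the stomach) and 0.0348 (*Isl1* in the intestine), and 2.61% and 5.65% of all genes tested were called in either direction in the intestine and the stomach.

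The profile of *Pax9*, the member with the highest mean TPM, was compared with that of all other genes over the 8 embryonic libraries as the Pearson r of log2(CPM + 1). The 5 most similar of 13385 genes ranked were *Dsc2* (r = 0.997), *Lhx6* (0.996), *Shox2* (0.995), *5730457N03Rik* (0.994) and *Evx1* (0.994). *Shox2*, for example, stood at 0.0898 CPM in the control intestine, 2.29 CPM in the *Eed* KO intestine, 0.109 CPM in the control stomach and 12.1 CPM in the *Eed* KO stomach (group means). Among the *Pax* genes, r with *Pax9* was 0.990 for *Pax3*, 0.985 for *Pax6* and 0.915 for *Pax1*. The 8 libraries fall into 4 groups of 2, and these values describe mainly the differences between the groups.

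Checks of the cells stand beside these results. *Eed* fell from 39.1 ± 1.45 to 9.66 ± 1.52 CPM in the intestine and from 40.8 ± 1.0 to 9.43 ± 2.86 CPM in the stomach (log2 fold changes of -2.02 ± 0.21 and -2.11 ± 0.21, edgeR adjusted p of 0.00464 and 0.00175). The size of this fall depends on the scaling. Scaled by the totals of the added spike-in RNA, *Eed* stood at 23.4 and 20.1 CPM in control and 12.4 and 24.8 CPM in *Eed* KO intestine libraries. In the stomach it stood at 16.7 and 20.5 CPM in control and 16.0 and 25.1 CPM in *Eed* KO libraries. *Nkx3-2*, whose promoter drives the Cre, had group means of 19.9 to 33.9 CPM in the embryonic libraries and did not pass the test (adjusted p of 0.942 and 0.937), and none of 10 gut mesenchyme markers was called in either organ. Of 10 central nervous system markers, 3 were called higher in the intestine (*Sox2* and *En2* among them) and 5 in the stomach, their summed level going from 103 to 143 CPM in control to 83.5 to 195 CPM in *Eed* KO intestine libraries and from 84.8 to 105 CPM to 94.3 to 146 CPM in the stomach. These sums are mostly *Nes*, which mesenchyme can also express and which stood at 103 and 142 CPM in control and 77.9 and 186 CPM in *Eed* KO intestine libraries. The median log2 fold change of the 8 markers tested was 3.37 (2.14 at the bounds) in the intestine and 4.45 (3.79 at the bounds) in the stomach. Markers without counts in any control library, such as *En2*, passed the filter on low counts through the *Eed* KO libraries. Of 10 endothelial markers, 5 were called higher in each organ, with sums of 23.7 to 28.4 CPM in control and 63.8 to 66.1 CPM in *Eed* KO intestine libraries, and 26.1 to 26.9 CPM and 40.7 to 62.9 CPM in the stomach. Of 10 epithelial markers 2 were higher in each organ (*Sox17* and *Esrp1*), of 10 skeletal muscle markers 1 and 2 (*Acta1*, and *Myod1* in the stomach), of 10 kidney markers 1 and 2 (*Emx2*, and *Lhx1* in the stomach), of 10 enteric neural markers 1 (*Stmn2*), and of 10 pancreatic markers 1 (*Nkx6-1*). Of 8 cartilage markers with a row, 1 was higher in the intestine (*Col2a1*) and 1 lower in the stomach (*Hapln1*). None of 10 B cell markers was called, with 1 tested. The part of other cell types in the *Pax* levels was not tested, and in sorted bulk cells a few cells with much *Pax* RNA and many with little cannot be told apart.

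In the adult intestinal mesenchyme all 8 *Pax* genes were too low to be tested, with library totals of 11404712 to 15903642 counts on genes. *Eed* stood at 31.6 ± 2.6 CPM in the control libraries and 25.4 ± 0.5 CPM in those labelled *Eed* KO, a log2 fold change of -0.32 ± 0.21 that was not called (edgeR adjusted p = 0.317). In TPM it stood at 36.5 ± 2.3 and 19.9 ± 1.9. The TMM scaling factors were 1.20 and 1.17 for the control libraries and 0.872 and 0.813 for the others, so the size of the fall in *Eed* depends on the scaling. The study's supplement reports the deletion efficiency of *Eed* in adult pericryptal cells, which was not used here. *Pax1*, *Pax9*, *Pax3* and *Pax7* had no counts in any of the 4, where 0 counts allow up to 0.210 to 0.301 CPM. *Pax6* had 6 and 8 counts in the control libraries and 1 and 2 counts in those labelled *Eed* KO. *Pax5* had 6 and 1 against 3 and 2 counts, *Pax8* had 3 and 3 against 0 and 10, and *Pax2* had 0 and 0 against 5 and 0. With no filter on low counts, *Pax6* had a log2 fold change of -1.91 ± 1.63 (edgeR adjusted p = 0.542), and none of the 4 genes with counts was called or had an unadjusted p under 0.05, where 15% of 25231 genes were called. DESeq2 was run on the genes that passed the filter and so gave no value for them.

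The linked genes changed in both directions in the adult libraries. Of the B lineage genes linked to *Pax5*, 4 of 15 were higher and 2 lower in the libraries labelled *Eed* KO, with 11 tested. *Cd72* went from 17.3 ± 0.7 to 421 ± 8 CPM and *Cd79b* from 10.4 ± 0.5 to 54.6 ± 8.2 CPM, whereas *Cd79a* fell by 1.23 and *Pou2af1* fell by 2.53 on the log2 scale. The 10 B cell markers summed to 146 to 234 CPM in the control libraries and to 528 to 543 CPM in those labelled *Eed* KO, *Nkx3-2* had at most 1 count in any adult library, and 5 of 10 gut mesenchyme markers were called lower, from sums of 8962 to 9269 CPM to 2662 to 3765 CPM. The 10 pancreatic markers summed to 29.1 and 67.1 CPM in the control libraries and to 39.7 and 1815 CPM in those labelled *Eed* KO, and the part of these other cells in the adult *Pax* counts was not tested. Of the cofactors, *Tle4* rose by a log2 fold change of 1.67 ± 0.27, and *Eya1* fell by 3.10 and *Dach1* fell by 1.87. Of the genes linked to *Pax1*, *Pax9*, *Pax2* and *Pax8*, *Sox9* fell by 1.18 and *Spry1* fell by 2.33, and *Gata3* rose by 1.56 ± 0.39. Of those linked to *Pax3* and *Pax7*, *Cxcr4* (2.52 ± 0.43), *Cited1* (2.55 ± 0.73) and *Mitf* rose, and *Fgfr4* fell by 2.29, *Ednrb* fell by 1.66 and *Snai2* fell by 1.58. All of these passed the edgeR test at adjusted p values between 0.000124 (*Cd72*) and 0.0436 (*Cited1*), where 19.6% of all genes tested were called.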

How the data were processed

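RNA-seq was analysed for 8 embryonic libraries (mouse, E13.5) and 4 adult libraries, and ATAC-seq for 4 peak lists, each made from 2 pooled libraries. The authors deposited raw counts per gene (Trimmomatic 0.32, STAR 2.5.1b, mm10, GENCODE vM4 and featureCounts). The featureCounts version is 1.5.0 in the adult file headers, the study's methods give 1.5.0 for the embryonic and a later one for the adult libraries, and the submitters' processing notes list 2.5.0 for the embryonic ones. The strand setting for the embryonic libraries is not given in the sources used here, and the adult libraries were unstranded. The ATAC-seq lists that the authors deposited hold broad peaks (BWA 0.7.8, MACS2 2.1.2) with a fold enrichment ratio and a -log10 q per peak. Totals were 30236159 to 39606157 counts on genes in the embryonic and 11404712 to 15903642 in the adult libraries. Intervals and floors cover counting error only.

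From the counts, embryonic and adult libraries were fitted apart with the edgeR (4.0.16, R 4.3.3) quasi-likelihood F-test, 1 mean per group, TMM scaling and the filter filterByExpr, and p-values were adjusted by Benjamini-Hochberg over all genes tested. TPM used the gene lengths of the adult tables. A group without counts was set against 3 counts over the group, and a ratio against 1 to 3 counts has a 95% exact counting interval. A promoter peak overlaps the 1000 bp on either side of the gene start by at least 1 bp. The code was tested on simulated data.

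The members and all gene lists were chosen with earlier results of these data known. All 8 genes were named, with *Eed*, *Nkx3-2* and, from each list and comparison, up to 2 genes higher and 2 lower with the largest log2 fold change among those called at a mean of at least 1 CPM. Some genes that this rule names are not reported here. The 5 genes most similar to the member of highest TPM were also named. Overlapping and neighbouring genes, *Hhex* and the other marker genes were named after their values were seen. Alternatives were DESeq2 (1.42.0) with its size factors or 1 RUVg factor, spike-in scaling, no filter, a replicate block, each library left out, and other windows, overlaps and q thresholds for peaks.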

Additional observations from a re-analysis of the deposited data

How the results depend on the processing

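With 2 libraries per group, single libraries carried much of the error. With each library left out in turn, the number of *Pax* genes called was 0 to 4 in the intestine, 3 to 5 in the stomach, 4 to 6 over both organs, 0 to 1 for the control organs, 0 to 2 when the *Eed* KO organs were compared, and 0 to 0 for the change of the organ difference and in the adult. The DESeq2 fit with 1 RUVg spike-in factor called 3 in the stomach, where *Pax1* had an adjusted p of 0.0699 and *Pax3* got none, and 4 between the *Eed* KO organs. For the control organs, DESeq2 with its size factors and the edgeR fit with no filter called 1 each, *Pax8*. Scaling by spike-in totals called 6 in the intestine (adding *Pax1*, adjusted p = 1.1e-06, and *Pax8*, 0.0216), 6 in the stomach (adding *Pax8*, 0.000697) and 1 between the *Eed* KO organs (*Pax8*, 0.0261), moved the all-gene median log2 fold change to 1.85 (intestine) and 2.39 (stomach), and gave summed *Pax* levels of 11.1 CPM in the *Eed* KO intestine, 49.8 CPM in the *Eed* KO stomach and 0.216 CPM in the control stomach. The cause of these differences was not tested. Of the values for single genes under all alternatives, 215 kept their side of the threshold, 18 newly passed it, 37 no longer passed it and none reversed.

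Organs of each animal were separated by dissection, but neither the labels nor the methods say that equal replicate numbers mark paired libraries, so the main values carry no replicate block. Deviations of same-numbered libraries from their group means had r between 0.138 and 0.370 for the control organs and between genotypes, and 0.748 for the *Eed* KO organs. With a replicate block by replicate number, 5 *Pax* genes were called in the intestine (*Pax1* added, edgeR adjusted p = 0.0404), 5 in the stomach, 5 over both organs, 3 between the *Eed* KO organs and 0 for the controls. With the block set by embryo pool, in which stomach and intestine of 1 genotype and number are taken as 1 pool, 4 were called between the *Eed* KO organs (*Pax1* and *Pax8* added) and 0 between the control organs.

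With peaks kept only at a -log10 q of at least 5, 2 *Pax* genes had a promoter peak in the control intestine, 4 in the *Eed* KO intestine, 2 in the control stomach and 6 in the *Eed* KO stomach. In the same order, 85.1%, 85.8%, 84.8% and 86.7% of the tested genes and 15.9%, 17.4%, 15.8% and 19.0% of the genes of low counts had one. The read depth of the lists, on which the -log10 q also depends, was not compared.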
